A study of Homo sapiens with 8 samples.

Results

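Lineage genes of serous ovarian carcinoma, 10 in number, were followed in RNA from OVSAHO and KURAMOCHI, established cell lines of this histological type. They were PAX8, WT1, SOX17, MUC16, MSLN, FOLR1, ESR1, MECOM, EMX2 and WFDC2. The 10 genes were taken by name, and each was represented by its brightest probe, that is, the one with the greatest average signal across the 8 arrays. They were 10 of 16955 genes with a tested probe, and their 16 probes all passed the filter on dim signals, with 6 genes on 1 probe and 4 genes on several. The study asked which transcripts differed between cultures given simvastatin, which inhibits HMG-CoA reductase at the head of the mevalonate pathway, and cultures given L-778123, which inhibits farnesyltransferase and type I geranylgeranyl transferase further down it. The 4 groups, with 2 arrays each, were OVSAHO with simvastatin, OVSAHO with L-778123, KURAMOCHI with simvastatin and KURAMOCHI with L-778123. All groups therefore carried a drug, and no untreated culture was analysed here. Each cell line stands for 1 tumour, and the concentrations and incubation times behind the arrays are not given in the sources used here.

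The female reproductive tract grows from the Mullerian ducts, and serous carcinoma keeps transcription factors of that epithelium such as PAX8, SOX17 and EMX2, together with WT1. At its surface it carries the mucin MUC16, which sheds the CA125 antigen, mesothelin from MSLN, which binds MUC16, and the folate receptor from FOLR1. WFDC2 encodes the secreted serum marker HE4, ESR1 encodes estrogen receptor alpha, and MECOM encodes a zinc finger factor often amplified in these tumours.

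Levels are given as the log2 signal of a probe relative to its array's 75th percentile, so that 0 is the brightness of the probe at that percentile, and a level of one probe is never set against that of another. The 75th percentile lay at an intensity of 324 to 437 on the 8 arrays, and 51.8 to 57.5% of probes stood well above background. Replicate arrays correlated at 0.995 to 0.996, and no spot of the 10 genes was saturated. The labels do not say that replicate arrays came from separate cultures, so p-values measure only the spread between these arrays, which may be technical. The number of arrays limits the precision. All arrays lay on 1 slide with each line at positions of its own, so slide position and line cannot be told apart.

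Both lines were checked against markers of several cell types. The 10 lineage genes and the epithelial markers EPCAM, KRT7, KRT8, KRT18, KRT19 and CDH1 were well above background on all 4 arrays of each line. NAPSA, ANXA4 and GPC3, 3 markers of clear cell carcinoma, were also above background on all arrays of both lines, as were the germ cell markers POU5F1, NANOG and SALL4. So were the leukocyte markers PTPRC and CD14, 3 of 5 mesothelial markers (UPK3B, DES and PDPN), the sex cord markers INHA and AMH (2 of 5), the intestinal marker MUC2 and the endothelial markers CDH5 and VWF. TEK, a further endothelial marker, was above background on all arrays of KURAMOCHI. Fibroblast markers differed between the lines: 0 of 5 were well above background on any OVSAHO array, whereas COL1A1 and COL3A1 were so on all KURAMOCHI arrays. The log2 of their summed signal ran from -4.52 to -3.96 in OVSAHO and from 1.25 to 1.69 in KURAMOCHI, while COL1A2, DCN and LUM were not well above background in either line. The part of the markers in the differences below was not tested.

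Of the 10 genes, 7 were found in the RefSeq table of promoters on GRCh38.p14, and 3 of these had a single annotated start. The 250 bases before the start of these 3 are shown, taken by their single start and not by their signal. They are a patterning factor that differed little between the lines (PAX8), one that was higher in OVSAHO (EMX2), and a secreted marker that was higher there by a wider margin (WFDC2). Capitals mark the GC box GGGCGG and the letters GGTCA, which occur in response elements of estrogen and other nuclear receptors, read on both strands, and each sequence runs 5′ to 3′ on the strand of its gene. The PAX8 window is chr2:113278922-113279171 on the minus strand, the EMX2 window chr10:117542496-117542745 on the plus strand, and the WFDC2 window chr20:45469503-45469752 on the plus strand.
PAX8: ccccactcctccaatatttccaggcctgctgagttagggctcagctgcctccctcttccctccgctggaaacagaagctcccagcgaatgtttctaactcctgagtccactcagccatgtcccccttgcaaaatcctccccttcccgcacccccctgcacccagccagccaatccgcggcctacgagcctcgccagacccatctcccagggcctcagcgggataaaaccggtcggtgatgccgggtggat
EMX2: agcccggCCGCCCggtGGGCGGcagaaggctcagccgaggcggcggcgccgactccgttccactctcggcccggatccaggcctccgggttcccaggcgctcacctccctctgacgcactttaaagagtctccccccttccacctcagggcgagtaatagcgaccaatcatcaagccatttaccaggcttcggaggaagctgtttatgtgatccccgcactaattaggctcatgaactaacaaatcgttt
WFDC2: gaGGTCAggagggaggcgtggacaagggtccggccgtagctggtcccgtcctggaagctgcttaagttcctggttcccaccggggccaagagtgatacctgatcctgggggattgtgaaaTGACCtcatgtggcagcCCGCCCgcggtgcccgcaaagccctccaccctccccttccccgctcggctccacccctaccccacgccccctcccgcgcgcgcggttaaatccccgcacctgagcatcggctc
The EMX2 window held 20 CpG pairs and 2 GC boxes, the WFDC2 window 19 CpG pairs, 1 GC box and 2 separate GGTCA matches on opposite strands, and the PAX8 window 11 CpG pairs and neither motif. A GC box was present in 42.6% of 35114 promoter windows of the same length and GGTCA in 32.7%. The SOX core ATTGT (24.6% of windows) occurred in the WFDC2 window alone of the 3, and the TATA box TATAAA (10.7% of windows) in none of them. These matches describe letters only.

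The lines were compared first, averaged over the drugs. Of the 10 genes, 6 were higher in OVSAHO (FOLR1, MUC16, WFDC2, ESR1, MECOM and EMX2) and 0 were lower, where a call needed an adjusted p under 0.05 in limma with Benjamini-Hochberg adjustment over all probes and a fold of at least 2. Over all 16955 genes, 34.8% were called in this comparison, 18.3% as higher and 16.4% as lower. The median log2 fold change was 1.12 for the 10 genes and 0.03 for all genes. At an adjusted p under 0.05 alone, 9 of the 10 differed, against 82.9% of all genes, which is a share near that of the background. The signals of the lines did not overlap for 7 of the 10, against 62.7% of all genes. The RNA came from whole cultures, in which fewer cells with a transcript and less of it per cell cannot be told apart.

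**Figure D1:**
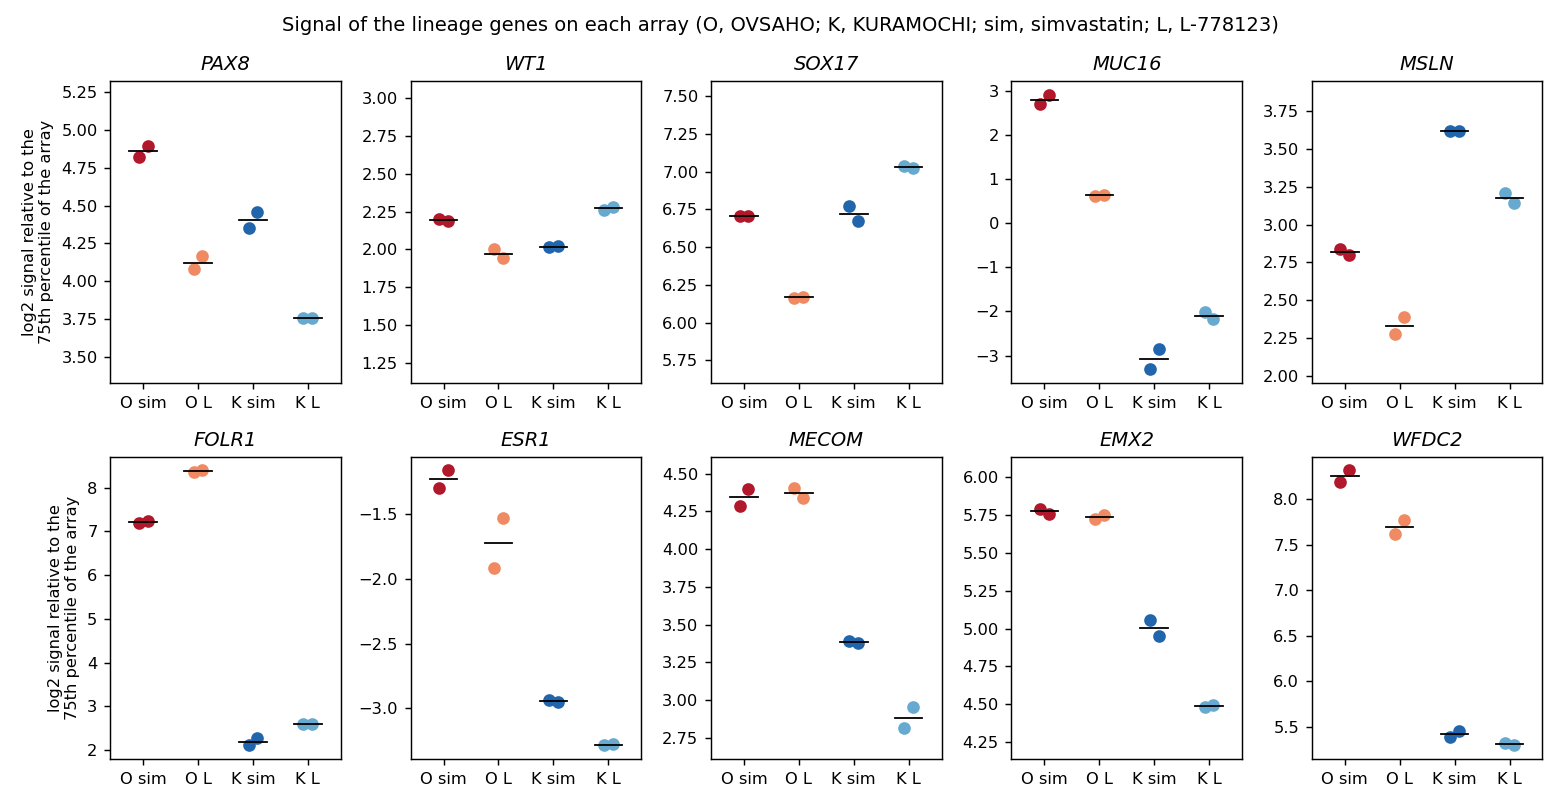
Level of each gene at its brightest probe (y axis, log2 signal relative to the 75th percentile of the array, scale of each panel its own) on the 2 arrays of each group (points) with the group mean (bar). FOLR1 lay between 7.20 and 8.39 in OVSAHO and between 2.11 and 2.61 in KURAMOCHI, whereas the lines overlapped for PAX8, WT1 and SOX17.

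At the brightest probe of each gene, the widest differences were those of the surface proteins FOLR1 and MUC16. FOLR1, the glycosylphosphatidylinositol-anchored folate receptor alpha, had levels of 7.20 and 7.24 in OVSAHO with simvastatin, 8.37 and 8.39 in OVSAHO with L-778123, 2.11 and 2.28 in KURAMOCHI with simvastatin and 2.61 and 2.60 in KURAMOCHI with L-778123. All 4 OVSAHO arrays were far above all 4 KURAMOCHI arrays. The log2 fold change was 5.40 with a standard error of 0.05, or 42.2-fold (limma, adjusted p = 5.72e-08), and it ranked 277 of 16955 genes by size. FOLR3, a close paralog that encodes a secreted folate receptor, differed by 5.55 on the log2 scale. FOLR2, a further paralog, read between -2.86 and -2.00 on all 8 arrays. Whether the FOLR1 and FOLR3 probes share signal was not tested.

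MUC16 read 2.70 and 2.92 in OVSAHO with simvastatin, 0.63 and 0.64 in OVSAHO with L-778123, -3.32 and -2.85 in KURAMOCHI with simvastatin and -2.01 and -2.18 in KURAMOCHI with L-778123. The lines did not overlap, and within OVSAHO the simvastatin arrays were the higher ones. The difference between lines was 4.31 (standard error 0.12, limma adjusted p = 8.12e-07), or 19.8-fold. A second MUC16 probe read between -3.18 and -0.89 on the OVSAHO arrays and was not well above background on any KURAMOCHI array, which put OVSAHO at least 6.82-fold higher. For a probe that was dim throughout a group, such a bound compares the mean of the bright group with the lowest signal that was well above background on each dim array, or with the probe's own signal where that was higher.

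MSLN was the surface gene with the higher signal in KURAMOCHI. Its transcripts had levels of 2.84 and 2.80 in OVSAHO with simvastatin, 2.28 and 2.39 in OVSAHO with L-778123, 3.62 and 3.62 in KURAMOCHI with simvastatin and 3.21 and 3.14 in KURAMOCHI with L-778123. Every KURAMOCHI array was above every OVSAHO array. The log2 fold change of -0.82 (standard error 0.04, limma adjusted p = 1.10e-05) was 1.77-fold and stayed under the fold threshold.

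WFDC2, the protease inhibitor-like HE4, read 8.19 and 8.31 in OVSAHO with simvastatin, 7.61 and 7.77 in OVSAHO with L-778123, 5.39 and 5.46 in KURAMOCHI with simvastatin and 5.33 and 5.30 in KURAMOCHI with L-778123. The OVSAHO arrays were all higher, by 2.60 on the log2 scale (standard error 0.06, limma adjusted p = 3.80e-07) or 6.07-fold. Its other probe gave 2.86.

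Among the transcription factors PAX8, SOX17, EMX2 and WT1, EMX2 was the one that passed both thresholds. This homeobox factor had levels of 5.79 and 5.76 in OVSAHO with simvastatin, 5.72 and 5.75 in OVSAHO with L-778123, 5.06 and 4.95 in KURAMOCHI with simvastatin and 4.48 and 4.49 in KURAMOCHI with L-778123. The lines did not overlap. The difference of 1.01 (standard error 0.04, limma adjusted p = 3.98e-06) was 2.02-fold and lay at the threshold: it came to 0.90 after quantile normalization and to 0.99 without KURAMOCHI simvastatin replicate 2, and the call was then lost. EMX2OS, the antisense neighbour of EMX2, was higher in OVSAHO by 1.91, and the probes of the pair were not compared for shared signal.

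PAX8, a paired-box factor that marks Mullerian and renal epithelium, read 4.82 and 4.89 in OVSAHO with simvastatin, 4.08 and 4.16 in OVSAHO with L-778123, 4.35 and 4.46 in KURAMOCHI with simvastatin and 3.76 and 3.75 in KURAMOCHI with L-778123. The lines overlapped, although with the same drug OVSAHO was higher. The log2 fold change was 0.41 (standard error 0.05, limma adjusted p = 3.46e-04), under the fold threshold. PAX8-AS1 differed by 0.01 (adjusted p = 0.97).

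WT1, a zinc finger factor of kidney and gonad development, had the narrowest difference of the 10, with levels of 2.20 and 2.19 in OVSAHO with simvastatin, 2.00 and 1.95 in OVSAHO with L-778123, 2.02 and 2.02 in KURAMOCHI with simvastatin and 2.26 and 2.28 in KURAMOCHI with L-778123. The lines overlapped, and the difference of -0.06 (standard error 0.04) did not pass the test (limma, adjusted p = 0.18). That average joined opposite differences, 0.18 with simvastatin (adjusted p = 0.024) and -0.30 with L-778123 (adjusted p = 0.0030), both under the fold threshold. WT1-AS, on the opposite strand, read lower in OVSAHO by a log2 fold change of -0.75, under the fold threshold.

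SOX17, an endoderm factor that is also kept in Mullerian epithelium, read 6.71 and 6.71 in OVSAHO with simvastatin, 6.16 and 6.17 in OVSAHO with L-778123, 6.77 and 6.67 in KURAMOCHI with simvastatin and 7.04 and 7.02 in KURAMOCHI with L-778123. The lines overlapped under simvastatin and were apart under L-778123. Averaged over the drugs the log2 fold change was -0.44 (standard error 0.04, limma adjusted p = 1.28e-04). Quantile normalization moved this average to -0.70. With simvastatin the log2 fold change was -0.015, and as low as -0.32 among the alternative settings. With L-778123 it was -0.86 and under the fold threshold, although quantile normalization gave -1.10, which passed it.

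MECOM had levels of 4.29 and 4.40 in OVSAHO with simvastatin, 4.41 and 4.34 in OVSAHO with L-778123, 3.39 and 3.38 in KURAMOCHI with simvastatin and 2.82 and 2.95 in KURAMOCHI with L-778123. The lines did not overlap and differed by 1.22 (standard error 0.05, limma adjusted p = 4.29e-06), or 2.33-fold. Its other probes gave 1.37 and 1.02, both higher in OVSAHO and both called.

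ESR1 depended on the probe. Its brightest probe by mean over all arrays read -1.30 and -1.16 in OVSAHO with simvastatin, -1.91 and -1.53 in OVSAHO with L-778123, -2.94 and -2.95 in KURAMOCHI with simvastatin and -3.28 and -3.28 in KURAMOCHI with L-778123. The lines did not overlap on this probe, which differed by 1.64 (standard error 0.09, limma adjusted p = 1.34e-05), or 3.11-fold, and which gave 0.99 and no call under normexp background correction. One of the other ESR1 probes read between 1.28 and 1.82 on the OVSAHO arrays and the last between 0.37 and 0.60, and neither was well above background on any KURAMOCHI array. These probes put OVSAHO at least 67.3-fold and at least 31.1-fold higher. The size therefore depended on the probe. The other probes passed the filter on dim signals only through OVSAHO. Their direction was fixed by that and adds no support to that of the brightest probe.

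**Figure D2:**
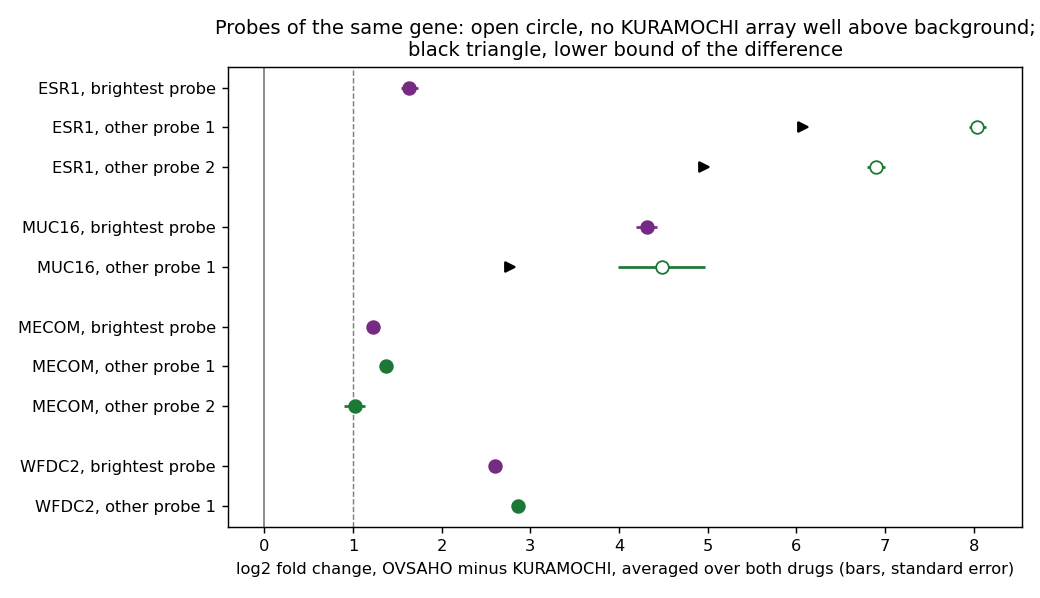
Difference between lines for the genes with several probes (x axis, log2 fold change, OVSAHO minus KURAMOCHI, with standard errors; each line is 1 probe). Open circles mark probes that were not well above background on any KURAMOCHI array, for which the black triangle gives the lower bound, as for the ESR1 probes at 67.3-fold and 31.1-fold.

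Within each drug the picture varied by gene. With simvastatin, 4 of the 10 were called higher in OVSAHO (FOLR1, MUC16, WFDC2 and ESR1), where 18.9% of all genes were called higher and 36.2% in either direction, and 0 were called lower, where 17.3% were. With L-778123, the same 4 and also MECOM and EMX2 were called higher, 6 in all, where 17.9% of all genes were called higher and 34.1% in either direction, and again 0 were called lower, where 16.3% were. MECOM differed by 0.96 with simvastatin and by 1.49 with L-778123, and EMX2 by 0.77 and 1.25. MUC16 differed by 5.89 with simvastatin, or 59.4-fold, and by 2.73 with L-778123, or 6.62-fold. FOLR1 differed by 5.02 with simvastatin and by 5.77 with L-778123.

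**Figure D3:**
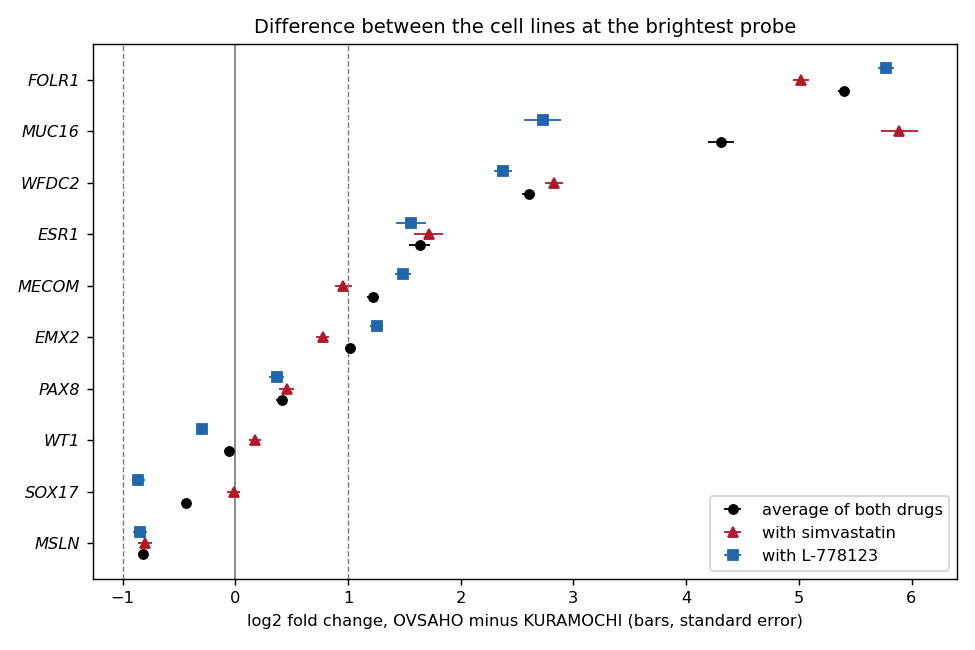
Log2 fold change between the lines at the brightest probe of each gene (x axis, OVSAHO minus KURAMOCHI, with standard errors; dashed lines at a fold of 2), averaged over the drugs and with each drug. MUC16 stood at 5.89 with simvastatin and 2.73 with L-778123, whereas MSLN stood at -0.80 and -0.84.

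The drugs were then compared within each line. In OVSAHO, MUC16 was higher with simvastatin than with L-778123 and FOLR1 was lower, and no other gene of the 10 passed both thresholds. That was 1 called higher, where 5.69% of all genes were called higher, and 1 called lower, where 5.89% were called lower (11.6% in either direction). At an adjusted p under 0.05 alone, 8 of the 10 differed, against 53.9% of all genes, and the signals of the drugs did not overlap for 9 of the 10, against 80.9% of all genes. The median log2 fold change, simvastatin minus L-778123, was 0.49 for the 10 genes and 0.01 for all genes.

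MUC16 was higher with simvastatin in OVSAHO by 2.17 on the log2 scale (standard error 0.17, limma adjusted p = 2.94e-04), or 4.51-fold. The second MUC16 probe gave 0.64 (standard error 0.69, limma adjusted p = 0.48), its 2 arrays with L-778123 reading -0.89 and -3.18, so this call rests on the brightest probe. FOLR1 was lower with simvastatin by a log2 fold change of -1.16 (standard error 0.07, limma adjusted p = 1.40e-04), or 2.23-fold, and FOLR3 likewise by -1.17. With smaller folds, PAX8 differed by 0.74 (adjusted p = 5.14e-04), WFDC2 by 0.56 (0.0026), SOX17 by 0.54 (9.24e-04), ESR1 by 0.49 (0.025), MSLN by 0.49 (0.0018) and WT1 by 0.22 (0.016), all with the higher signal under simvastatin. For ESR1 the other probes gave 0.42 (adjusted p = 0.053) and 0.03 (adjusted p = 0.90). EMX2, at 0.04 (adjusted p = 0.63), and MECOM, at -0.03 (adjusted p = 0.76), did not pass the test in limma.

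In KURAMOCHI, 0 of the 10 genes passed both thresholds in limma, where 5.38% of all genes did (2.44% as higher and 2.95% as lower). A two-way analysis of variance with Tukey post hoc test and Benjamini-Hochberg adjustment also called 0. The share of all genes called by that stricter test was not counted, so its count says nothing particular to the 10. Below the fold threshold, 8 of the 10 had an adjusted p under 0.05 in limma, where 35.4% of all genes did. Signals of the drugs did not overlap for any of the 10, against 74.3% of all genes, and the median log2 fold change was 0.23 against 0.01 for all genes. PAX8 was higher with simvastatin by 0.65 (standard error 0.07, limma adjusted p = 0.0017), EMX2 by 0.52 (0.0026), MECOM by 0.50 (0.0057) and MSLN by 0.44 (0.0048). For MECOM the other probes gave 0.40 (limma adjusted p = 0.021) and 0.01 (limma adjusted p = 0.97). MUC16 was lower with simvastatin, by a log2 fold change of -0.99 (limma adjusted p = 0.0085), as were FOLR1 at -0.41 (0.0097), SOX17 at -0.31 (0.012) and WT1 at -0.25 (0.017). The MUC16 value was 1.99-fold and passed the fold threshold without KURAMOCHI simvastatin replicate 2 (-1.22) and without KURAMOCHI L-778123 replicate 2 (-1.08), while normexp background correction gave -0.44. The second MUC16 probe gave -0.56 (limma adjusted p = 0.58) and was not well above background on any KURAMOCHI array. Signals of the brightest MUC16 probe also lay near background in this line. ESR1 (0.34, adjusted p = 0.10) and WFDC2 (0.11, adjusted p = 0.33) did not pass the test.

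The difference between the drug contrasts of the lines was tested as an interaction, OVSAHO minus KURAMOCHI, with no threshold on its size. It passed an adjusted p under 0.05 in limma for 7 of the 10, where 27.4% of all genes passed. Without the filter on dim probes it passed for 3 of the 10 (MUC16, SOX17 and FOLR1), and the share of all genes under that setting was not counted. MUC16, SOX17 and WT1 were higher with simvastatin in OVSAHO and lower with it in KURAMOCHI, with differences of 3.16, 0.85 and 0.48. FOLR1 was lower with simvastatin in both lines, further in OVSAHO (-0.75). For MECOM (-0.53) and EMX2 (-0.48), the signal was higher with simvastatin in KURAMOCHI, and neither gene passed the test in OVSAHO. WFDC2 differed by 0.45 at an adjusted p of 0.039, a call that was lost when any of 7 of the 8 arrays was left out, and the MECOM call was lost when any of 5 arrays was. The second MUC16 probe gave an interaction of 1.20 (limma adjusted p = 0.43), and the other MECOM probes gave -0.26 (limma adjusted p = 0.20) and -0.13 (limma adjusted p = 0.73). The other WFDC2 probe gave 0.52 (limma adjusted p = 0.029) with all arrays in the fit. For PAX8 (0.09, adjusted p = 0.54), MSLN (0.04, adjusted p = 0.75) and ESR1 (0.15, adjusted p = 0.59) no difference between the lines was detected at this number of arrays.

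**Figure D4:**
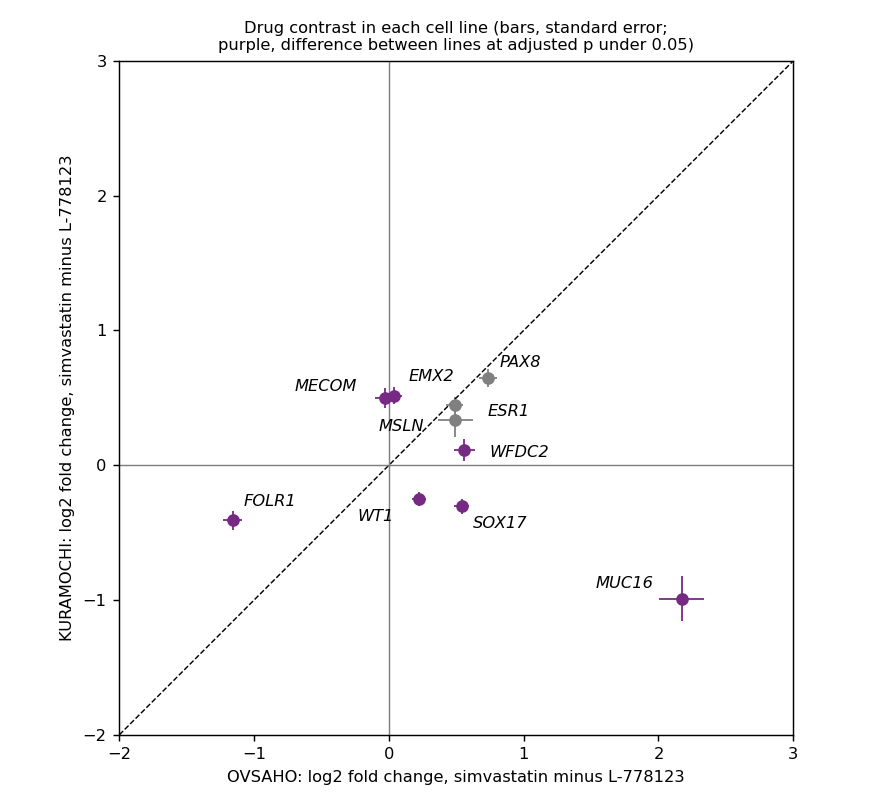
Log2 fold change, simvastatin minus L-778123, in OVSAHO (x axis) and in KURAMOCHI (y axis) for each gene, with standard errors; purple marks an interaction at an adjusted p under 0.05, and the dashed line marks equal values. MUC16 lay at 2.17 in OVSAHO and -0.99 in KURAMOCHI, and PAX8 lay near the dashed line at 0.74 and 0.65.

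Genes that work beside the 10 were read from 4 lists. In the list of Mullerian patterning and oviduct genes, 2 of 14 tested genes were higher and 5 were lower in OVSAHO, where 18.3% and 16.4% of all genes were, with a median log2 fold change of -0.43 where that of all genes was 0.03. LHX1, a homeobox factor of kidney and reproductive tract, was higher in OVSAHO by 8.52, with levels of 6.59 to 7.02 there and of -2.17 to -1.34 in KURAMOCHI. HOXA13, a posterior patterning factor that was not well above background on any KURAMOCHI array, was at least 1.51-fold higher. The Wnt ligand WNT5A was lower in OVSAHO by a log2 fold change of -3.91 and TPPP3, a tubulin-binding protein of ciliated cells, by -2.64.

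In the list of surface and secreted markers of serous tumours, 14 of 26 were higher in OVSAHO and 9 lower, where 18.3% and 16.4% of all genes were, with a median of 1.16 (0.03 for all genes). VTCN1, the immune checkpoint ligand B7-H4, was at least 75.3-fold higher in OVSAHO, and CRIP1, a LIM domain protein, was higher by 4.28. SPP1, which encodes osteopontin, was at least 420.1-fold lower in OVSAHO, where it was not well above background on any array, and the peptidase KLK5 had a log2 fold change of -3.95. Members of this list thus lay at both ends of the comparison.

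Among partners and targets of the estrogen receptor, 9 of 20 were higher in OVSAHO and 4 lower, where 18.3% and 16.4% of all genes were, with a median of 0.82 (0.03 for all genes). The transcription factors GATA3 and FOXA1, which open chromatin for the receptor, were at least 20.8-fold and at least 10.3-fold higher in OVSAHO, and neither was well above background on any KURAMOCHI array. RERG, an estrogen-regulated small GTPase, was higher by 3.83. GREB1, a coactivator that estrogen induces, was at least 15.5-fold lower in OVSAHO, where no array was well above background.

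Among paralogs and antisense neighbours of the 10 genes, 5 of 14 were higher in OVSAHO and 2 lower, where 18.3% and 16.4% of all genes were, with a median of 0.46 (0.03 for all genes). Besides FOLR3 and EMX2OS, the protease inhibitor SLPI, which shares the WFDC2 fold, was higher by 1.77, and EGR1, a zinc finger factor related to WT1, had a log2 fold change of -2.90. SLPI and MUC1 stood in more than 1 list.

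**Figure D5:**
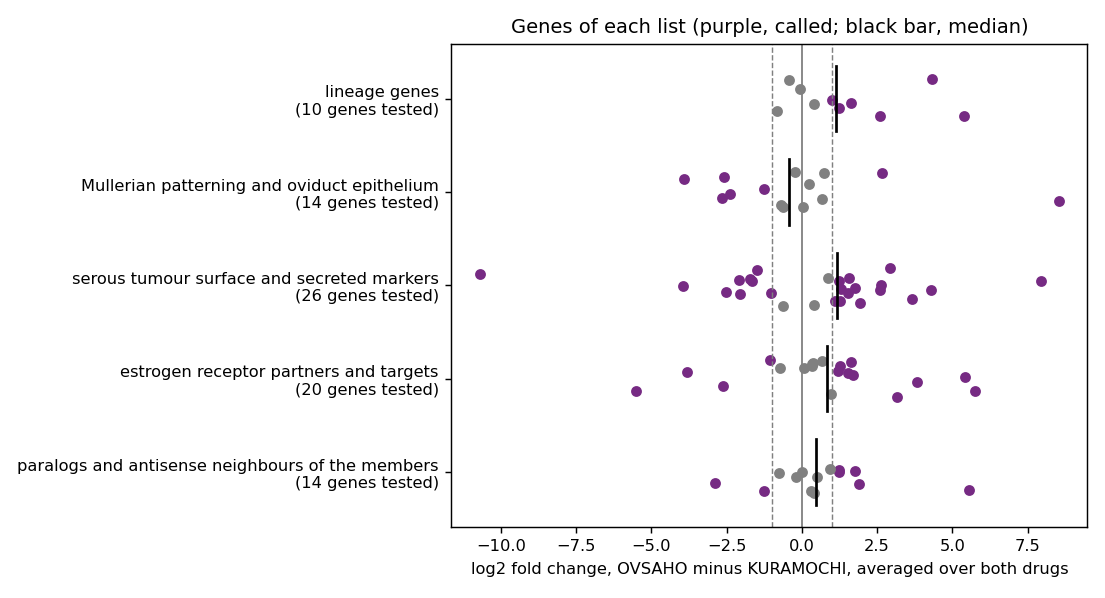
Fitted log2 fold change between the lines, OVSAHO minus KURAMOCHI averaged over the drugs (x axis), for the 10 genes and the 4 lists (points, 1 gene each at its brightest probe; purple, called; bar, median; height within a row carries no meaning; dim genes at their fitted value and not their bound). The median stood at 1.12 for the 10 genes and 1.16 for the surface and secreted markers, and the Mullerian list at -0.43.

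The lists were also counted between the drugs, where 5.69% of all genes were called higher with simvastatin and 5.89% lower in OVSAHO, and 2.44% higher and 2.95% lower in KURAMOCHI. Of the 14 genes of the Mullerian list, 3 were higher with simvastatin and 2 lower in OVSAHO, and 1 was higher and 0 lower in KURAMOCHI. CAPS, a calcium-binding protein of ciliated cells, was higher by 1.94 in OVSAHO and by 1.07 in KURAMOCHI, and WNT5A was lower in OVSAHO, at -1.77 on the log2 scale. Of the 26 surface and secreted markers, 5 were higher and 3 lower in OVSAHO, and 2 and 0 in KURAMOCHI. SCGB2A1, a secretoglobin, was higher with simvastatin by 5.04 in OVSAHO, where its levels were 2.05 and 2.07 with simvastatin and -2.80 and -3.16 with L-778123, and at least 2.05-fold higher in KURAMOCHI. VTCN1 was higher by 3.13 in OVSAHO, and the tight junction protein CLDN4 by 1.59 in OVSAHO and by 1.20 in KURAMOCHI. Of the 20 genes of the estrogen receptor list, 5 were higher and 2 lower in OVSAHO, and 1 and 0 in KURAMOCHI. The epithelial factor ELF3 was higher by 2.16 and the carbonic anhydrase CA12 at least 2.07-fold in OVSAHO, and the gene called in KURAMOCHI was GATA3, which was not well above background with either drug there and has no fold. Of the 14 paralogs and antisense neighbours, 2 were higher and 1 lower in OVSAHO, and 1 and 0 in KURAMOCHI. The mucin MUC1 was higher by 1.95 in OVSAHO, and EGR1 by 1.06 in OVSAHO and by 1.32 in KURAMOCHI. Whether these lists differed between the lines in the number called was not tested.

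The genes with profiles nearest to those of the 10 were named by the root mean square difference over the 8 arrays, after each profile was centred on its own mean. For FOLR1 the nearest was FOLR3, at 0.14 on the log2 scale, followed by GPRIN2 at 0.17. The nearest to MUC16 was RADIL at 0.19, that to WFDC2 was COL16A1 at 0.07, and that to ESR1 was LINC00607 at 0.08. For PAX8 the nearest was LPCAT1 at 0.06, for WT1 it was SCRN1 at 0.05, and for SOX17 it was IER5 at 0.05. RGS14 was nearest to MSLN at 0.05, ABHD14B to MECOM at 0.06, and LINC01023 to EMX2 at 0.06. The 8 arrays share their lines and drugs, so a small distance describes these arrays only.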

How the data were processed

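RNA was labelled in one color and hybridized to 8 SurePrint G3 Human Gene Expression arrays, grouped by the labels. The authors scanned the arrays with Agilent Feature Extraction 11.5.1.1 (submitters' processing notes) and deposited, for each spot, a background-corrected processed intensity, median intensities and quality flags. They also deposited a table of normalized intensity, whose median was equal on all arrays. Quantile normalization would give such a median, but so would scaling to a common median. The study's methods name scaling to the 75th percentile. Outlier spots and control spots were left out, spots of a probe were averaged, and the log2 intensity was scaled to the 75th percentile of each array. A probe was kept where 1 or more groups had both of its arrays well above background (33753 of 58162 probes), and 31079 probes were named through RefSeq accessions (24782 of 50096 identifiers matched). The model had 1 mean per group (lmFit and eBayes of limma 3.58.1, R 4.3.3, with Benjamini-Hochberg adjustment over all kept probes). The code was tested on simulated data. The two-way analysis of variance of the study's methods was an alternative. The members, the gene lists and the rule for named genes (all 10 genes, up to 4 called genes of a list between lines and up to 2 between drugs in each line, and the nearest profiles) were chosen with earlier results of these data known. Alternatives covered background correction (normexp on median signals), normalization, filters, the call threshold, the probe, the replicate block and each array left out in turn. Some of the cell type markers are not reported here.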

Additional observations from a re-analysis of the deposited data

Results flagged for a closer look

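For 7 of the 10 genes the contrast of simvastatin with L-778123 differed between the lines by a test of the interaction (limma, adjusted p under 0.05, where 27.4% of all genes passed). On the log2 scale, as OVSAHO minus KURAMOCHI, the difference was 3.16 for MUC16 (standard error 0.24, adjusted p = 0.0010), 0.85 for SOX17 (0.08, adjusted p = 0.0021) and 0.48 for WT1 (0.07, adjusted p = 0.0093). These genes had the higher signal with simvastatin in both OVSAHO arrays and the lower signal with it in both KURAMOCHI arrays. It was -0.75 for FOLR1 (0.10, adjusted p = 0.0059), -0.53 for MECOM (0.10, adjusted p = 0.020), -0.48 for EMX2 (0.09, adjusted p = 0.014) and 0.45 for WFDC2 (0.11, adjusted p = 0.039). Without the filter on dim probes the test passed for 3 of the 7 (MUC16, SOX17 and FOLR1), and the share of all genes under that setting was not counted. Of 18 alternative settings, the WFDC2 call was lost in 11 and the MECOM call in 8. The second MUC16 probe gave 1.20 (limma adjusted p = 0.43), and the other MECOM probes gave -0.26 (limma adjusted p = 0.20) and -0.13 (limma adjusted p = 0.73). The other WFDC2 probe gave 0.52 (limma adjusted p = 0.029) with all arrays in the fit.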

How the results depend on the processing

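Each value of the 10 genes was recomputed under the 18 to 21 alternative settings that applied to it, 8 of which left out 1 array. Of 1220 values so obtained, 1139 kept their direction and their side of the threshold, and 11 reversed. In 28 the call was lost, and in 42 it was gained by the threshold of that setting. The settings with a fold of at least 1.5 or an adjusted p alone left the value as it was, so they could only add calls. For the 6 genes with 1 probe, the second brightest probe and the median over probes were that same probe. The number that kept their side was therefore partly fixed in advance. The number of arrays limits every value, and KURAMOCHI signals of MUC16 and ESR1 lay near background.

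The replicate numbers did not pair the arrays (correlations of deviations 0.00 to 0.06), and with the replicate block all 60 values kept their call, with 6 genes higher in OVSAHO. With a fold of at least 1.5, lower calls between lines were 1 on average, 1 with simvastatin and 2 with L-778123, higher calls with simvastatin over L-778123 were 2 in OVSAHO and 1 in KURAMOCHI, and 1 gene was lower in KURAMOCHI. With an adjusted p alone, lower calls between lines were 2, 1 and 3, and higher calls between lines with simvastatin were 8. Between drugs, 7 were higher in OVSAHO, and 4 were higher and 4 lower in KURAMOCHI. By that rule, in either direction, 82.9% of all genes passed between lines on average, 53.9% between drugs in OVSAHO and 35.4% in KURAMOCHI. For the other counts of this paragraph the share of all genes was not counted. Quantile normalization and the deposited table each gave 1 lower call between lines with L-778123 (SOX17). At the second brightest probe, 0 genes were called higher between drugs in OVSAHO. Leaving out arrays gave 0 to 1 lower calls between drugs in KURAMOCHI (MUC16, 1 without simvastatin replicate 2 or L-778123 replicate 2), and without the filter on dim probes the interaction passed for 2 higher and 1 lower.

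Reversed values were all small and none was called. SOX17 between lines with simvastatin ranged from -0.065 to 0.034 over the arrays left out, positive only without KURAMOCHI simvastatin replicate 1. MECOM between drugs in OVSAHO was 0.0097 after quantile normalization, 0.0084 in the deposited table, -0.084 to 0.024 over the arrays left out (0.024 and 0.0034 without OVSAHO simvastatin or L-778123 replicate 1), and 0.14 at the second brightest probe and as the median over probes. The MSLN interaction was -0.014 with normexp and -0.0086 to 0.098 over the arrays left out, and that of ESR1 was -0.039 to 0.35 over them, both lowest without OVSAHO L-778123 replicate 1, and -0.065 as the median over probes. The WFDC2 interaction was lost in 11 settings (0.21 after quantile normalization), among them leaving out any array but OVSAHO L-778123 replicate 2. The MECOM interaction was lost in 8, among them leaving out OVSAHO simvastatin replicate 1, OVSAHO L-778123 replicate 1, either KURAMOCHI simvastatin array or KURAMOCHI L-778123 replicate 1. MECOM between lines with simvastatin was called without OVSAHO simvastatin replicate 1 (1.01). The ESR1 contrast of drugs in OVSAHO was 0.30 without OVSAHO L-778123 replicate 1. The cause was not tested.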
